A study of Mus musculus with 16 samples.

Results

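The genes described here encode the constitutive core of the proteasome and its 19S regulatory particle, with their assembly factors and 1 inhibitor. They were chosen by name, as protein-coding genes whose symbol is Psma, Psmb, Psmc, Psmd, Psmf or Psmg followed by a number. The catalytic genes Psmb5 to Psmb10 were left out of the set and serve as comparison. Of 38 such genes, 35 had 10 or more counts in at least 8 of the 16 libraries and form the set. Psma8 (2 libraries with 10 counts), Psmb11 (2 libraries) and Psmg2 (7 libraries) did not reach that level. All 35 were among the 9851 genes tested, and the level required of a member does not look at genotype.

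The libraries came from liver neutrophils of 8 C57BL/6 mice, numbered 2 to 9. Each host was a wild-type mouse that had been irradiated with about 1000 cGy and rebuilt for 8 weeks with equal parts (50% each) of wild-type CD45.1+ and Ifngr1-/- CD45.2+ marrow. All mice carried MC38 flank tumours (MC38 is a colon carcinoma line), all were given an agonist antibody against CD40 (aCD40) 1 week after the tumour cells, and livers were taken 2 days after the antibody. The WT group holds the 8 libraries of CD45.1+ neutrophils and the Ifngr1_KO group the 8 libraries of CD45.2+ neutrophils that lack a chain of the interferon gamma receptor. In all 8 mice the genotypes also differed by donor of the marrow, by CD45 form and by gate of the sort, which cannot be told apart from loss of the receptor. The deletion was present in every marrow-derived Ifngr1-/- cell, not in neutrophils alone. The sources used here do not give the ages of the mice.

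The 26S proteasome degrades proteins that carry ubiquitin chains. Its 20S core is a barrel of stacked rings: outer alpha rings, which gate the entrance, and inner beta rings, in which Psmb5, Psmb6 and Psmb7 carry the constitutive proteolytic sites. The 19S particle caps the barrel. Its base holds a ring of ATPases that unfold substrates and subunits that bind ubiquitin, and its lid removes the ubiquitin chains. Interferon gamma is known to induce Psmb8, Psmb9 and Psmb10, which replace the constitutive catalytic subunits to form the immunoproteasome, and Psme1 and Psme2, which form the PA28 cap. The alpha subunits and the other beta subunits are shared by both kinds of core.

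Library totals ran from 12.5 to 21.7 M counts. The target gene Ifngr1 ranged from 228 to 358 CPM (counts scaled to library size by TMM) in WT and from 38.8 to 119 CPM in Ifngr1_KO, without overlap. The share of mitochondrially encoded mRNAs was 0.595 ± 0.272% in WT and 1.39 ± 0.656% in Ifngr1_KO (SD, n = 8). It was higher in Ifngr1_KO in 6 of 8 mice. The Ifngr1_KO library of mouse 7 had the highest such share, 2.503%, and it also held the most extreme values of many members. The labelled cell type was checked by summed marker levels. The 8 neutrophil markers summed to 31755 to 54064 CPM in WT and 27151 to 82835 CPM in Ifngr1_KO, the sum being higher in Ifngr1_KO in 2 of 8 mice, and 0 of 8 passed the test. Hepatocyte markers summed to 398 to 1779 CPM in WT and 465 to 1706 CPM in Ifngr1_KO, higher in Ifngr1_KO in 1 of 8 mice, and 0 of 8 passed. The 5 monocyte markers summed to 2147 to 3404 CPM in WT and 1456 to 2608 CPM in Ifngr1_KO, lower in Ifngr1_KO in 8 of 8 mice, and 1 of them, Ly6c2, passed. Kupffer cell markers stayed at 17.9 to 38.9 CPM in WT and 19.9 to 34.6 CPM in Ifngr1_KO, with Vsig4 at 0 in all libraries and 0 of the 4 that could be tested called. B cell, T and NK cell, endothelial and proliferation markers each summed to at most 27.9 CPM in any library. The part of neutrophil, hepatocyte and monocyte markers and of the mitochondrial share in the results for proteasome genes was not tested, apart from the fit with the mitochondrial share as a covariate given below. Fewer cells of a type and less RNA per cell cannot be told apart in bulk libraries.

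Promoter sequences are shown for the alpha subunit that passed the test, for the alpha subunit whose groups also did not overlap, and for Psmd2, the 19S subunit lower in all 8 mice at the smallest adjusted p. Psma5 encodes the alpha5 subunit, Psma2 the alpha2 subunit and Psmd2 the large scaffold subunit of the 19S base. Each sequence holds the 250 bases before the RefSeq gene start (GRCm38.p6), read 5′ to 3′ on the plus strand, and capitals mark matches to any of 5 motifs. The positions are chr3:108256676-108256925 for Psma5, chr13:14612992-14613241 for Psma2 and chr16:20651402-20651651 for Psmd2.
Psma5: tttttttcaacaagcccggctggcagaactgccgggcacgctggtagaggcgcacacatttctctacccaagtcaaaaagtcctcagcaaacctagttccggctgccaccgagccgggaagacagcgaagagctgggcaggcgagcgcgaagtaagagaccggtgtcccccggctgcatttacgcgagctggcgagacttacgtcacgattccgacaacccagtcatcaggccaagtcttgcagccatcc
Psma2: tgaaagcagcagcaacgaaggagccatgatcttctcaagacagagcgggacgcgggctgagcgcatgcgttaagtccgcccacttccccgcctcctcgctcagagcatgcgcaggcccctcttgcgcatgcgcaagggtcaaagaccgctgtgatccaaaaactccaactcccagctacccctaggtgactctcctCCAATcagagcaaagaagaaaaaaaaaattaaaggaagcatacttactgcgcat
Psmd2: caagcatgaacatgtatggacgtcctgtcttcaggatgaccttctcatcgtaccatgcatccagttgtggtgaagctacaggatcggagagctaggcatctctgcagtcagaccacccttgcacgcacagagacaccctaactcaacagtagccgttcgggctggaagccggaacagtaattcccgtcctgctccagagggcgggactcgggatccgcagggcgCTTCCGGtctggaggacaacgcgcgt
The Psma5 stretch has no capitals, Psma2 has a CCAAT box at -54 to -50 and Psmd2 has an ETS site at -26 to -20.

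The motifs were searched on both strands in windows of 300 bases, 250 before and 50 after the start. RefSeq promoters matched 30 of the 35 members. The interferon gamma-activated site (GAS, TTCNNNGAA) was found in 2 of 30 members (6.67%) against 9.55% of all 27025 genes with such windows. The core of the interferon-stimulated response element (ISRE) was found in 4 of 30 (13.3%) against 3.99%. Those 4 were Psmb3, Psmd4, Psmd9 and Psmg4, none of which passed the test between genotypes. Among the comparison genes with a promoter, Psme1 held an ISRE core, after the start at 10 to 19. The antioxidant response core (ARE, TGACNNNGC) was found in 3 of 30 (10%) against 14.0%. A CCAAT box was found in 11 of 30 (36.7%) against 41.1%. The ETS site (CCGGAAG) was found in 12 of 30 (40.0%) against 9.93%. A gene was counted when any of its windows held the motif, 1 gene can hold several motifs, and these counts describe letters, not binding. Psmd2 holds its GAS match after the start, at 5 to 13. For comparison, the immunoproteasome gene Psmb8 holds a GAS match at -97 to -89, the 1 such match among 7 comparison genes with a promoter, which include Psmb9, Psmb10, Psme1 and Psme2. None of the 5 motifs was found in the Psma5 window, which says only that these letters are absent from it.

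Psma5 was the member that fell. In WT, from mouse 2 to mouse 9, it stood at 44.3, 59.7, 52.2, 45.0, 81.7, 62.8, 62.4 and 82.8 CPM. In Ifngr1_KO the same order gave 21.4, 20.7, 14.0, 40.9, 24.9, 34.1, 22.1 and 23.0 CPM. The highest Ifngr1_KO library, that of mouse 5, lay below the lowest WT library, that of mouse 2, so the groups did not overlap. The mean fell from 61.4 ± 14.7 to 25.2 ± 8.45 CPM (SD, n = 8), a change of -1.32 on the log2 scale (SE 0.21, 95% interval -1.79 to -0.86, edgeR quasi-likelihood test, Benjamini-Hochberg adjusted p = 0.00588). Ifngr1_KO kept 40.0% of the WT level. Within mice the kept share was lowest in mouse 4 (26.9%) and highest in mouse 5 (90.9%). The gene (ENSMUSG00000068749) lies at chr3:108256926-108279974 on the plus strand in mm10.

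**Figure D1:**
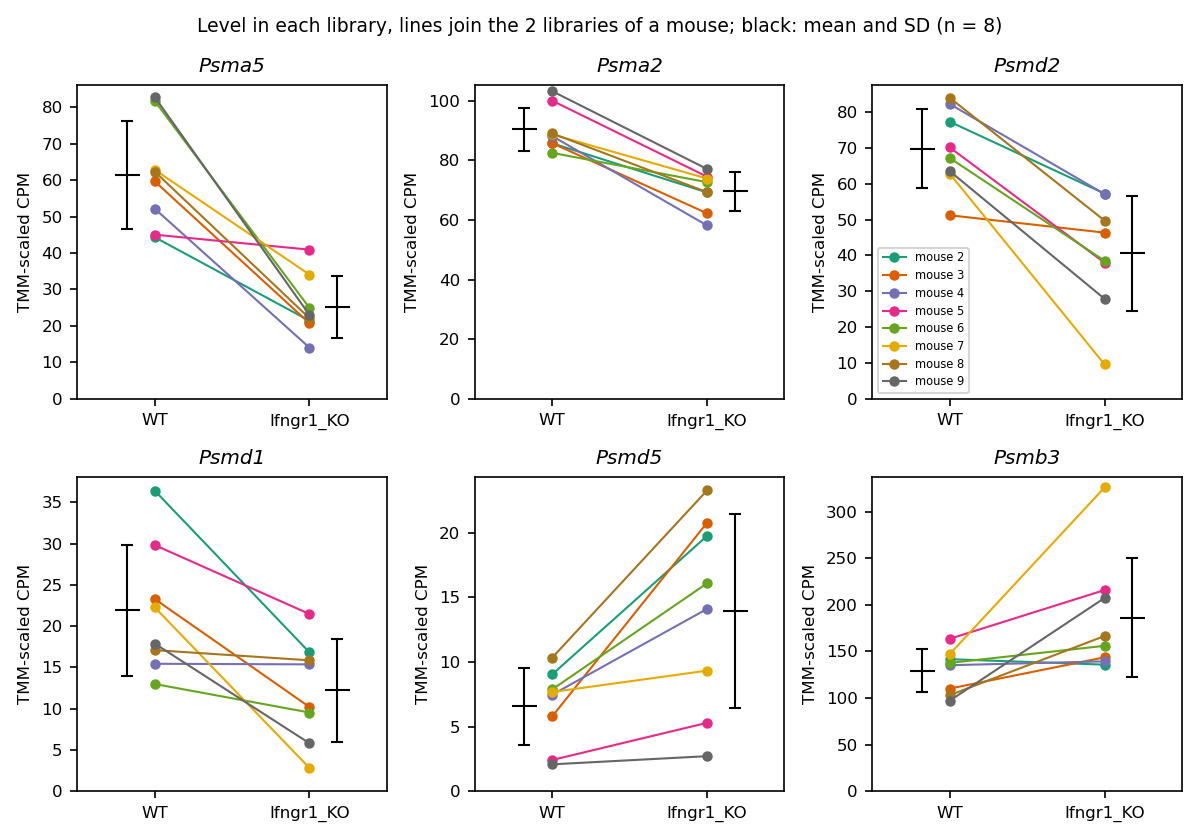
Level of 6 proteasome genes in each library, in TMM-scaled CPM on a linear axis, with a line joining the WT and Ifngr1_KO libraries of a mouse and black marks for the mean and SD (n = 8). Every Psma5 line falls, from 44.3 to 82.8 CPM in WT to 14.0 to 40.9 CPM in Ifngr1_KO, and every Psmd5 line is higher at its Ifngr1_KO end.

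The call on Psma5 held when any of the 8 mice was left out, with log2 fold changes of -1.49 to -1.24 and adjusted p of 0.00129 to 0.0285 (edgeR). With the mitochondrial share as a covariate, the log2 fold change was -1.56 and the adjusted p 0.0625, above the threshold of 0.05. Over the alternatives run, adjusted p for Psma5 ran from 1.26e-07 to 0.0625. Of the transcript sequence of Psma5, 61.0% of 31-base words also occur in other genes, most of them in the processed pseudogene Gm8394. That pseudogene held 7 counts over all libraries against 10830 for Psma5. The antisense gene 1700010K24Rik, which overlaps Psma5 by 60 bases, held 0 counts.

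Most members did not pass the test. Of 35, 1 was lower, 0 were higher and 34 did not pass at an adjusted p under 0.05 (edgeR quasi-likelihood test), where 2.32% of all genes tested were lower, 0.477% were higher and 2.8% were called in either direction. At an unadjusted p under 0.05, 6 members were lower and 2 were higher, against 8.57% and 7.69% of all genes. By sign, 25 members were below 0 (71.4%) and 10 above, where 46.8% of all genes were below 0. The median log2 fold change was -0.14 against 0.046 over all genes. The median of all genes is 0.157 when library totals replace TMM, and 26 of 35 members lay below the median of all genes under both scalings. The log2 fold changes of 30 members were smaller than 0.5 in size, the 95% intervals of 27 included 0, and the intervals of 26 lay within -1 and 1. As a share of all counts, the 35 genes together took 0.139 ± 0.0135% in WT and 0.139 ± 0.0159% in Ifngr1_KO (SD, n = 8), with the Ifngr1_KO share higher in 4 of 8 mice.

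**Figure D2:**
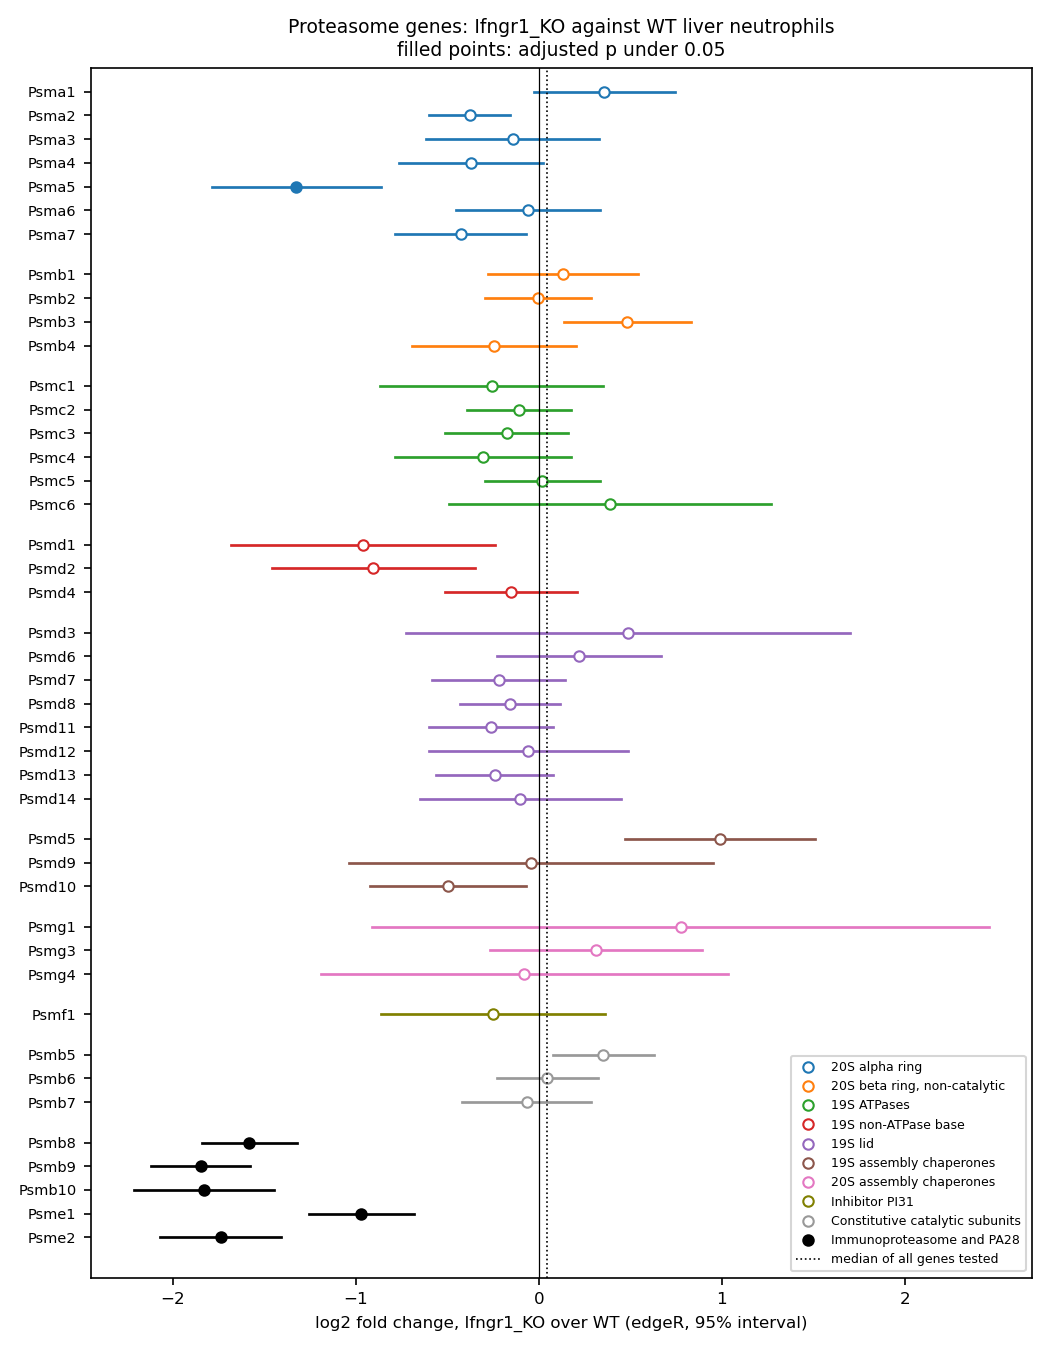
Log2 fold change of Ifngr1_KO over WT for each member and comparison gene, grouped by role, with 95% intervals from edgeR (8 mice); filled points passed an adjusted p of 0.05 and the dotted line is the median of all genes tested. Psma5 at -1.32 is the filled member, and the 5 immunoproteasome and PA28 genes are filled at -1.85 to -0.97.

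The 7 alpha subunits had a median log2 fold change of -0.37. Among them Psma5 was lower than each of the other 6 in Ifngr1_KO as a share of WT in 7 of 8 mice, the exception being mouse 5. Psma1, the alpha6 subunit, ran from 28.2 over a median of 47.7 to 74.3 CPM in WT and from 46.6 over 56.6 to 94.0 CPM in Ifngr1_KO. Its log2 fold change was 0.36 (SE 0.17, adjusted p = 0.34), the highest of the ring, and its groups overlapped. Psma6, the alpha1 subunit, ran from 44.7 over 49.4 to 79.4 CPM in WT and from 32.2 over 55.4 to 68.3 CPM in Ifngr1_KO, with a log2 fold change of -0.06 (SE 0.18). Its sign turns with library totals in place of TMM (0.054).

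Psma2 was the other member whose groups did not overlap, against 1.65% of all genes; it and Psma7 and Psmd2 are named after their values were seen. Psma2 ran from 82.6 over 88.5 to 103 CPM in WT and from 58.2 over 71.0 to 77.1 CPM in Ifngr1_KO, lower in 8 of 8 mice. The difference was small, with a log2 fold change of -0.38 (SE 0.10, 95% interval -0.60 to -0.16), and did not pass (adjusted p = 0.0789, edgeR). Psma7, the alpha4 subunit, ran from 66.3 over 90.9 to 98.3 CPM in WT and from 42.2 over 59.4 to 131 CPM in Ifngr1_KO. It was lower in 7 of 8 mice and higher in mouse 7 (log2 fold change -0.43, SE 0.16, adjusted p = 0.219). Without mouse 7 both passed, Psma2 at -0.39 (adjusted p = 0.0318) and Psma7 at -0.56 (adjusted p = 0.0209).

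The 4 non-catalytic beta subunits had a median of 0.06. Psmb3, the beta3 subunit, ran from 97.2 over 136 to 164 CPM in WT and from 136 over 161 to 326 CPM in Ifngr1_KO. It was higher in 7 of 8 mice, the Ifngr1_KO library of mouse 7 being the highest, and the groups overlapped. The log2 fold change was 0.48 (SE 0.16, 95% interval 0.14 to 0.83), which did not pass (adjusted p = 0.149, edgeR), and 0.060 with the mitochondrial share as covariate. Psmb4, the beta7 subunit, ran from 62.1 over 72.5 to 94.9 CPM in WT and from 45.6 over 58.3 to 137 CPM in Ifngr1_KO, lower in 7 of 8 mice (log2 fold change -0.25, SE 0.20, adjusted p = 0.581). Its log2 fold change was -0.13 without mouse 6, -0.43 without mouse 7 and -0.13 with library totals.

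The constitutive catalytic subunits, which sit in the same ring, gave 0 calls of 3. Psmb5, which carries the chymotrypsin-like site, was at 182 ± 25.8 CPM in WT and 237 ± 57.0 CPM in Ifngr1_KO (log2 fold change 0.35, adjusted p = 0.186). Psmb6 stood at 0.05 and Psmb7 at -0.07 on the same scale, the latter at 0.046 with library totals in place of TMM. In the same libraries 5 of 5 immunoproteasome and PA28 genes fell, and in each the groups did not overlap. The log2 fold changes were -1.58 for Psmb8, -1.85 for Psmb9, -1.83 for Psmb10, -0.97 for Psme1 and -1.74 for Psme2, with adjusted p of at most 0.00171 (edgeR). The log2 fold change of Psma5 lay between those of Psme1 and Psmb8, and its difference from them was not tested.

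The 6 ATPases of the 19S base gave 0 calls and a median of -0.14. Psmc4, which encodes Rpt3, was lowest at -0.31 (SE 0.22, adjusted p = 0.522; -0.17 without mouse 3), with 28.2 over 38.8 to 47.8 CPM in WT and 16.98 over 28.9 to 53.0 CPM in Ifngr1_KO. Psmc5, which encodes Rpt6, had a log2 fold change of 0.02 (SE 0.14, 95% interval -0.29 to 0.33), with 25.3 to 37.6 CPM in WT and 25.1 to 36.0 CPM in Ifngr1_KO. Psmc6, which encodes Rpt4, was highest at 0.39 (SE 0.40, adjusted p = 0.662). Its WT libraries spread from 1.88 over 15.0 to 33.3 CPM, and its Ifngr1_KO libraries from 12.9 over 17.3 to 21.8 CPM, inside the WT range. The log2 fold change of Psmc6 was 0.62 without mouse 2, 0.078 without mouse 5 and 0.15 without the mouse block.

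The 3 members that are non-ATPase subunits of the base had the lowest median of the roles, -0.90. Adrm1, a further such subunit that the choice by name leaves out, stood at -0.16 (SE 0.13, edgeR adjusted p = 0.566). Psmd2 ran from 51.2 over 68.6 to 83.9 CPM in WT and from 9.58 over 42.4 to 57.2 CPM in Ifngr1_KO, lower in 8 of 8 mice with overlapping groups. The log2 fold change was -0.90 (SE 0.25, 95% interval -1.46 to -0.35, adjusted p = 0.091), and the lowest value was in the Ifngr1_KO library of mouse 7. Without mouse 7 it passed, at -0.68 (adjusted p = 0.0232), while with the mitochondrial share as covariate it stood at -0.25 (adjusted p = 0.906). Psmd1, the other large scaffold of the base, ran from 13.0 over 20.1 to 36.4 CPM in WT and from 2.80 over 12.8 to 21.5 CPM in Ifngr1_KO. It was lower in 8 of 8 mice, though by little in mouse 4, and did not pass (log2 fold change -0.96, SE 0.33, 95% interval -1.68 to -0.24, adjusted p = 0.168), and stood at -0.38 with that covariate. Psmd4, a ubiquitin receptor, ran from 57.6 over 82.1 to 93.6 CPM in WT and from 52.9 over 68.2 to 99.4 CPM in Ifngr1_KO (log2 fold change -0.15, SE 0.16).

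The 8 lid members gave 0 calls and a median of -0.13. Sem1, a lid subunit that the choice by name leaves out, had a log2 fold change of 0.33 (SE 0.19, edgeR adjusted p = 0.408). The WT level of Sem1 was 59.0 CPM per kb of exon sequence, above the 34.1 of Psmd8. Psmd8, the lid member highest per kilobase, ran from 86.8 over 109 to 115 CPM in WT and from 75.8 over 90.8 to 140 CPM in Ifngr1_KO (log2 fold change -0.16, SE 0.12). Psmd11, also a structural subunit of the lid, was its lowest member, at -0.26 (SE 0.15, adjusted p = 0.429), with 26.3 to 54.9 CPM in WT and 25.7 to 48.6 CPM in Ifngr1_KO. Psmd3, a scaffold of the lid, was the highest at 0.49 but with an SE of 0.55. Its libraries spread from 0.69 over 17.6 to 35.2 CPM in WT and from 2.97 over 25.6 to 33.3 CPM in Ifngr1_KO, more widely within a group than between the groups. The log2 fold change of Psmd3 was 0.89 without mouse 7, 0.20 without mouse 9, 0.14 without the mouse block and 1.07 with the mitochondrial covariate.

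The 3 chaperones that assemble the 19S base gave a median of -0.04 and include the member with the highest log2 fold change. Psmd5 (the S5b chaperone) stood from mouse 2 to mouse 9 at 9.04, 5.79, 7.47, 2.41, 7.88, 7.67, 10.3 and 2.07 CPM in WT. In Ifngr1_KO it stood at 19.8, 20.8, 14.1, 5.29, 16.1, 9.33, 23.3 and 2.70 CPM. It was higher in Ifngr1_KO in 8 of 8 mice, while the groups overlapped. Mice 5 and 9 were low in both groups, and the Ifngr1_KO value of mouse 7 (9.33 CPM) also lay below the WT value of mouse 8 (10.3 CPM). The log2 fold change was 0.99 (SE 0.23, 95% interval 0.47 to 1.51), with an adjusted p of 0.0528 that did not pass (edgeR). Without mouse 7 it passed (1.09, adjusted p = 0.0252). Psmd10 (gankyrin) ran from 16.5 over 25.7 to 33.1 CPM in WT and from 12.2 over 17.6 to 20.8 CPM in Ifngr1_KO, lower in 7 of 8 mice (log2 fold change -0.49, SE 0.19, adjusted p = 0.23).

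The 3 members that are chaperones of 20S assembly had a median of 0.31. Psmg1 (0 to 79 counts per library) and Psmg4 (13 to 72) rested on few counts, while Psmg3 had 77 to 238. Psmg1 ran from 0 over 2.32 to 3.01 CPM in WT and from 0.509 over 2.79 to 6.10 CPM in Ifngr1_KO (log2 fold change 0.78, SE 0.76; 0.36 without mouse 5). Psmg4 ran from 1.00 over 2.22 to 3.77 CPM in WT and from 1.04 over 2.14 to 3.01 CPM in Ifngr1_KO (-0.08, SE 0.50). Its sign turns with library totals (0.033). Psmf1, which encodes the proteasome inhibitor PI31, ran from 6.64 over 11.1 to 13.3 CPM in WT and from 4.06 over 8.79 to 15.7 CPM in Ifngr1_KO (log2 fold change -0.25, SE 0.28, adjusted p = 0.691; -0.072 without mouse 3). None of these differences passed the test.

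Levels differed far more between subunits than between genotypes. Per kilobase of exon sequence, WT means ran from 0.565 for Psmd9, a 19S assembly chaperone, to 58.2 CPM per kb for Psmb2, a 103-fold range. Per kilobase of coding sequence, they ran from 2.22 for Psmg1 to 211 for Psmb3, a 94.7-fold range. By WT median over the members of a role, the beta subunits (105 CPM per coding kb) and the alpha subunits (73.2) led. The ATPases (27.7), base (25.6) and lid (25.3) followed. The assembly chaperones were lowest (6.14 for 19S and 5.90 for 20S, 3 members each), though Psmd10 among them stood at 34.9. Outside the set, the 20S chaperone Pomp stood at 124, the lid subunit Sem1 at 995 and the base subunit Adrm1 at 44.4 in WT. Psma5 was at 84.9 CPM per coding kb in WT and 34.8 in Ifngr1_KO. The 5 immunoproteasome and PA28 genes had a WT median of 1134 CPM per coding kb against 30.6 for the members. The order of the members per exon kb was nearly the same in both genotypes (Spearman's rho 0.969 over 35 genes, a description across genes from the same mice).

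**Figure D3:**
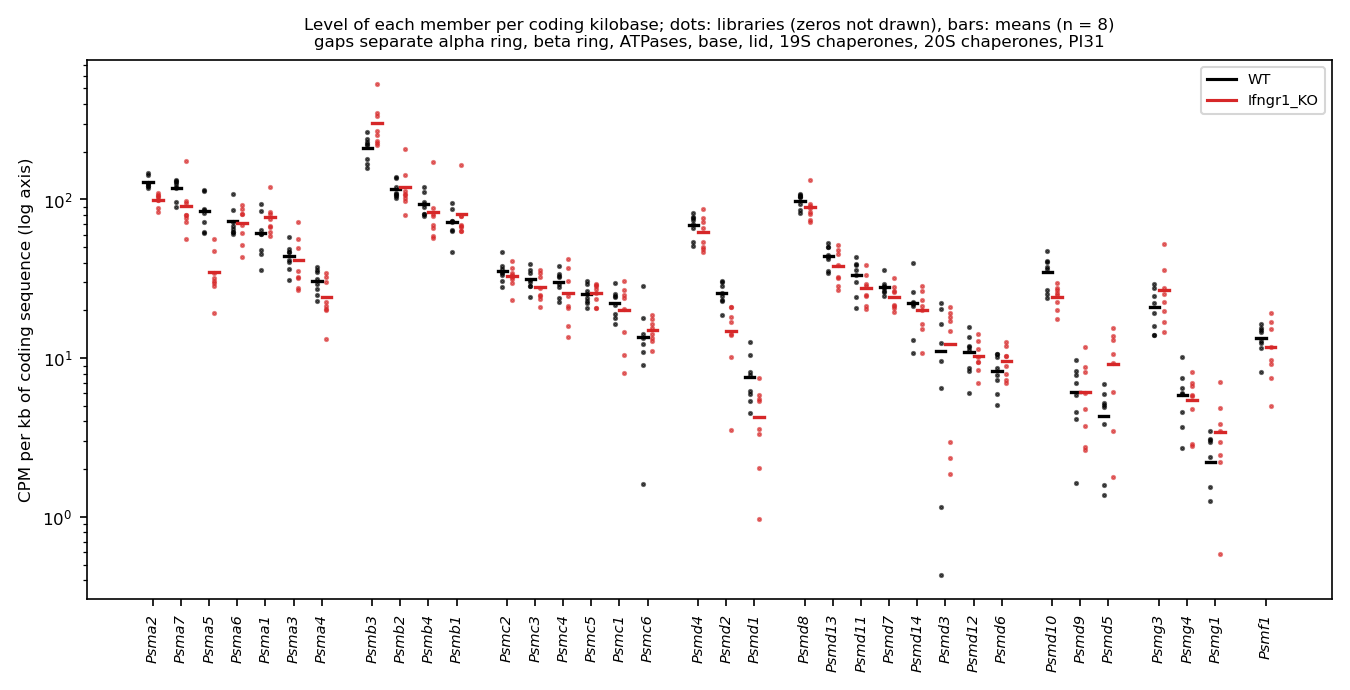
Level of each member in CPM per kilobase of coding sequence on a log axis, ordered by role; dots are libraries (zeros not drawn) and bars are means of 8 WT (black) or 8 Ifngr1_KO (red) libraries. WT means span 2.22 (Psmg1) to 211 (Psmb3), and the lowest means are those of assembly chaperones.

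The members also varied between mice. The number of members lower in Ifngr1_KO was 26 in mouse 2, 21 in mouse 3, 20 in mouse 4, 18 in mouse 5, 21 in mouse 6, 17 in mouse 7, 20 in mouse 8 and 18 in mouse 9. Over all genes tested, the share lower ran from 48.4% in mouse 5 to 49.9% in mouse 2. The spread of the 35 within-mouse ratios was largest in mouse 7 (SD 1.10 on the log2 scale). The Ifngr1_KO library of mouse 7 held the highest of the 8 Ifngr1_KO values for 14 members and the lowest for 8. The coefficient of variation was larger in Ifngr1_KO for 26 of 35 members, with medians of 33.3% and 19.9%. Lower in at least 7 of 8 mice were 8 members, against 11.4% of all genes, and higher were 2, against 10.2%. Lower in all 8 were Psma2, Psma5, Psmd1 and Psmd2, and higher in all 8 was Psmd5. Of all 9851 genes tested, 486 were lower and 272 higher in all 8 mice.

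**Figure D4:**
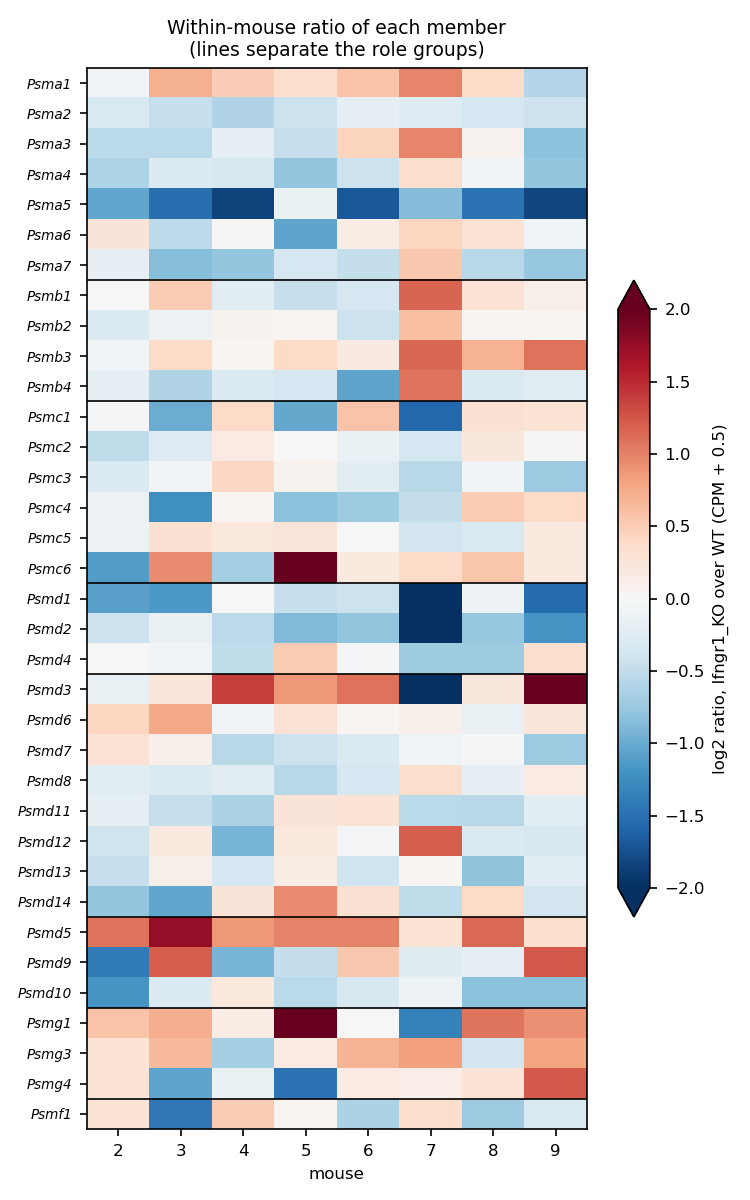
Within-mouse log2 ratio of Ifngr1_KO over WT for each member (CPM + 0.5), in rows by role and columns by mouse, on a colour scale from -2 to 2. Psma5 is blue in every mouse, palest in mouse 5 where 90.9% of the WT level was kept, and the colours of mouse 7 are the most varied.

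Around the members, 45 of 52 listed genes of the ubiquitin-proteasome pathway were tested, of which 0 fell, 1 rose and 44 did not pass; at an unadjusted p under 0.05, 7 were lower and 3 higher. Over all genes, 2.32% fell, 0.477% rose, and 8.57% were lower and 7.69% higher at the unadjusted p. The median of the 45 was 0.12. Uchl5, a deubiquitinase bound to the 19S base, ran from 11.2 over 17.2 to 36.1 CPM in WT and from 23.7 over 36.7 to 84.3 CPM in Ifngr1_KO. It rose in 8 of 8 mice with overlapping groups (log2 fold change 1.12, SE 0.25, edgeR adjusted p = 0.0413). That call was lost without mouse 2, 3, 6, 7, 8 or 9 (adjusted p = 0.0533 to 0.118) and also when the mitochondrial share entered the fit (0.65, adjusted p = 0.689). Of 8 regulators of proteasome genes, 0 passed: Nfe2l2, a stress-response transcription factor, stood at 738 ± 116 CPM in WT and 642 ± 96.4 CPM in Ifngr1_KO (log2 fold change -0.20, adjusted p = 0.253). Of 17 ubiquitin and substrate delivery genes, 0 passed, with log2 fold changes of -0.76 to 0.95 and a median of 0.07. DESeq2 called 4 of the 45 lower (Mafk, Uba1, Ubb and Ufd1) and 1 higher (Uchl5). The shares of all genes called there were 5.81% lower and 4.95% higher. Those 4 lower genes are named after their values were seen. Of 8 cytosolic peptidases, 0 passed, and Cndp2, a dipeptidase, stood at -0.18 (adjusted p = 0.535).

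With mouse 7 left out, 4 members were lower (Psma2, Psma5, Psma7 and Psmd2) and 1 was higher (Psmd5), while 3.34% of all genes were lower and 0.78% higher. DESeq2 called 4 lower (Psma2, Psma5, Psmd1 and Psmd2) and 2 higher (Psmb3 and Psmd5), against 5.81% and 4.95% of all genes. Limma-voom with quality weights called 4 lower (Psma2, Psma5, Psma7 and Psmd2) and 1 higher (Psmd5), against 4.31% and 1.75%. When the mitochondrial share entered the fit as a covariate, 0 members passed, against 0.863% of all genes lower and 0.0812% higher. In that fit Psma7 stood at -0.69, Psmb4 at -0.58 and Psmb5 at 0.094.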

How the data were processed

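RNA of sorted liver neutrophils was measured in 16 libraries, 8 per group, made from 1 ng of RNA with oligo-dT priming and 13 PCR cycles, per the labels. The authors deposited whole-number estimated counts per Ensembl gene; the submitters' processing notes name Salmon 0.14.2, DESeq2 1.22.1 and mm10, without their roles. The kit does not mark strand and adds no molecular identifiers.

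The members and lists were chosen with earlier results of these data known. Symbols and positions came from GENCODE (mm10). Counts were tested with edgeR 4.0.16 (R 4.3.3; filterByExpr, TMM, robust quasi-likelihood F-test, mouse as block), adjusted by Benjamini-Hochberg over 9851 genes, threshold 0.05. SE is the log2 fold change over the square root of F. DESeq2 1.42.0 and limma 3.58.1 were alternatives. Named were each called member, the highest and lowest log2 fold change and the highest level per kb of each role, Psmf1, up to 4 called genes (or the most abundant) per pathway list, and all comparison genes. Pomp, Sem1 and Adrm1 are named in addition, after their values were seen.

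Both libraries of a number came from 1 mouse, per the design text. Their deviations correlated by 0.138 on average within mice (0.0246 to 0.314) and -0.0180 between mice. Libraries hold 12.5 to 21.7 M counts, so genes of a few CPM rest on few counts. Coding length is the longest annotated coding sequence. Protein features were not analysed here. One gene that the naming rule picks is not reported here.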

Additional observations from a re-analysis of the deposited data

Results flagged for a closer look

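In 6 of 48 groups of 8 libraries, 1 library lay further from its nearest neighbour than Dixon's 95% limit (0.526 of the range). Chance gives about 1 in 20 groups where groups are independent and values normal. The 48 groups reuse the same 16 libraries, so they are not independent. They include Psma2, Psma7 and Psmd2, named after their values were seen. All but 1 of the 6 flags fell on the Ifngr1_KO library of mouse 7. It was highest for Psma1 at 94.0 CPM (next 66.0), Psma7 at 131 CPM (next 72.7), Psmb3 at 326 CPM (next 216), Psmb4 at 137 CPM (next 69.7) and Psmd8 at 139.98 CPM (next 98.6). The WT library of mouse 5 was highest for Uchl5 at 36.1 CPM (next 22.3).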

How the results depend on the processing

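Alternatives concern the scaling, the filter, the tool, a covariate, the threshold, the mouse block and the mice used. Without the replicate block, members gave 1 lower and 0 higher call, as in the paired fit, and the block changed no call of a member or listed gene. Library totals in place of TMM gave 102 higher genes, 1 higher member (Psmd5) and a member median of -0.028, with the same gap of -0.19 to the median of all genes. No low-count filter gave 31 higher genes. DESeq2 gave 572 lower and 488 higher genes, 4 lower and 2 higher members and 4 lower pathway genes. Limma-voom gave 425 lower and 172 higher genes, 4 lower and 1 higher members and 6 lower pathway genes. The mitochondrial share as a covariate gave 85 lower and 8 higher genes, 0 lower members, a member median of -0.22 and 0 higher pathway genes. An adjusted p of 0.1 gave 361 lower and 142 higher genes, 3 lower and 1 higher members and 4 lower pathway genes. Leaving out 1 mouse gave 144 to 334 lower and 19 to 78 higher genes, 1 to 4 lower and 0 to 1 higher members, 0 to 4 lower and 0 to 1 higher pathway genes. The cause of these shifts was not tested.

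Signs near 0 turned for Psma6 (0.054), Psmb7 (0.046) and Psmg4 (0.033) with library totals, for Psmc5 (-0.0062) without a filter, and for Psmb6 (-0.16) and Psmc6 (-0.28) with the covariate. Leaving out 1 mouse gave -0.13 to 0.081 for Psma6, -0.019 to 0.076 for Psmc5, -0.31 to 0.16 for Psmg4, -0.027 to 0.094 for Psmb6 and -0.14 to 0.032 for Psmb7. Members below about 5 CPM (Psmd9, Psmg1, Psmg4) rest on few counts, and the part of depth in their spread was not tested.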

Other observations

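Coding length and the within-mouse ratio were related most strongly in mouse 7. Over the 35 members, Spearman's rho between coding length and the Ifngr1_KO to WT log2 ratio was -0.52 in mouse 7 and -0.24 over 8752 genes there. In the other mice it ran from -0.07 (mouse 9) to 0.26 (mouse 4) over the members. Over all those genes it ran from -0.17 (mouse 8) to 0.073 (mouse 2) in the other mice. With all mice together it was -0.07 over the members and -0.10 over all those genes. These correlations are across genes, which are not independent, and describe the libraries only.

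Some alpha ring values are shared with pseudogenes. Psma3 was at 33.5 ± 6.34 CPM in WT and 31.8 ± 12.4 CPM in Ifngr1_KO, and the copy Gm13835, whose sequence it shares in part, held 6283 counts over all libraries against 8075 for Psma3. Summed, the pair stood at 59.0 ± 12.2 CPM in the 8 WT libraries and at 56.7 ± 19.3 CPM in the 8 Ifngr1_KO libraries (SD). Over the set, 26 of 35 members shared under 10% of their 31-base words with any other gene and 7 shared over 20%.

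No member lies on chromosome 10, which carries Ifngr1. Psmd1 is the member on chromosome 1, 51.9 Mb from Ptprc, the gene of the CD45 forms used in the sort.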
